A study of Mus musculus with 6 samples.

Results

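The genes described here are the nuclear genes for complexes II to V of the mitochondrial respiratory chain, with cytochrome c and the assembly factors that share their symbols, in mouse RAW264.7 cells given a miR-125b mimic or a negative control. They were chosen by symbol: Sdha to Sdhd and the Sdhaf genes, every symbol beginning with Uqc, with Cox and a digit or with Atp5, and Cyc1 and Cycs, pseudogenes left out. The rule found 60 of the 16665 genes in the deposited table, all annotated as protein coding. Of these, 58 had a mean of at least 1 FPKM (fragments scaled to exon length and to the library's mapped fragments) over the 6 libraries and were tested. The assembly factor Cox16 and the muscle isoform Cox6a2 lay under that filter, with mean levels of 0.758 and 0.722 FPKM. A further 8 entries that fit the rule in the annotation, among them Cox20, Cox6b2, Cox7b2, Cox8b and Cox8c, were not analysed here.

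RAW264.7 is a macrophage-like line established from a mouse leukaemia. All 6 libraries came from transfected cells of this line, 3 titled miR-125b mimic with the genotype given as miR-125b overexpression, and 3 titled NC (negative control) with the genotype given as miR-125b WT. The labels state neither the dose, the time after transfection nor the arm of the microRNA, and untransfected cells were not analysed here. They do not say whether the 3 libraries of a group were separate cultures, and p-values may then reflect technical spread only. Recovered depth ran from 14.45 to 16.81 M fragments per library. Of 10 macrophage markers 9 had a mean of at least 1 FPKM, the exception being Mrc1 at 0 to 0.0408 FPKM, while 0 markers of T cells, B cells, fibroblasts, epithelium, endothelium or muscle reached it.

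Complex II, succinate dehydrogenase, oxidises succinate in the citric acid cycle and passes the electrons to ubiquinone. Complex III moves them from ubiquinone to cytochrome c, complex IV moves them on to oxygen, and both build the proton gradient that complex V, the ATP synthase, uses to make ATP. Complex II is built from nuclear genes alone, whereas complexes III to V also hold subunits encoded by mitochondrial DNA (mtDNA). Macrophages are known to shift between respiration and glycolysis when they are activated.

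A microRNA pairs with its targets mainly through its seed, bases 2 to 8, so the mature sequence and the members' sites with the longest seed match are shown, from RefSeq (GRCm38.p6) and GENCODE M21 (GRCm38). Capitals mark the seed in the microRNA, which both mouse copies encode (chr9:41581940-41581961 and chr16:77646279-77646300, plus strand), and the matching letters in the sites. The Cox4i1 site is shown as well, because that gene had the smallest p of all members. It starts at base 14 of the 392 in the longest annotated 3′ UTR of the gene. Its letters span 120671141 to 120672727 across the junction, whereas the gene ends at 120674207. Any annotated transcript with a stop codon could supply a 3′ UTR. Whether the main mRNA of Cox4i1 holds this site in its 3′ UTR was not tested.
miR-125b-5p: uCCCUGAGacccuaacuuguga
Uqcr11 8mer, chr10:80403067-80403074, minus strand: ggtctgcaccgCTCAGGGAgcttccatgtt
Uqcc1 8mer, chr2:155847709-155847716, minus strand: ggttctccaagCTCAGGGAataactgcagc
Sdhaf2 8mer, chr19:10514176-10514183, minus strand: catctgtaagaCTCAGGGAgtacctattgt
Cox4i1 7mer, chromosome 8, plus strand, across an exon junction: aggccactcatTCAGGGAgtgttgtgaag

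Members held few such sites. In the longest annotated 3′ UTR, 3 of 58 tested members carried an 8mer (5.2%; 5.9% of 9313 tested genes with a 3′ UTR). Any 7mer or 8mer occurred in 7 members (12.1%; 24.0% of the genes) and any match of at least the 6 letters TCAGGG in 11 (19.0%; 38.2%). The 3′ UTRs of members were short, with a median of 330.5 bases against 1334 over all tested genes with one. The 3 members with an 8mer did not share a direction: Uqcr11 had a log2 fold change of −0.81, Uqcc1 of −0.27 and Sdhaf2 of 0.26, and 0 of them passed the test described below. Sdhaf2 holds the most matches of any member, 5 in a 3′ UTR of 3447 bases.

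Negative control 3 stood apart from the other libraries. It had 13266 genes above 0, against 15141 to 15470 in the others. For members, the log2 difference between NC 1 and NC 2 had an SD of 0.15. That of NC 3 from the mean of both had an SD of 0.58 and ran from −2.07 (Cox7a1) to 1.59 (Atp5mpl). The Cox7a1 value rests on few recovered fragments, 21, 36 and 0 in NC 1 to 3. NC 3 lay below both other controls in 43 of 58 members and above both in 13. In 41 members (70.7%; 65.7% of all tested genes) it was nearer to the mean of the mimic libraries than to the mean of NC 1 and NC 2. For named members and lists whose call or sign changed without it, both values are given.

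**Figure D1:**
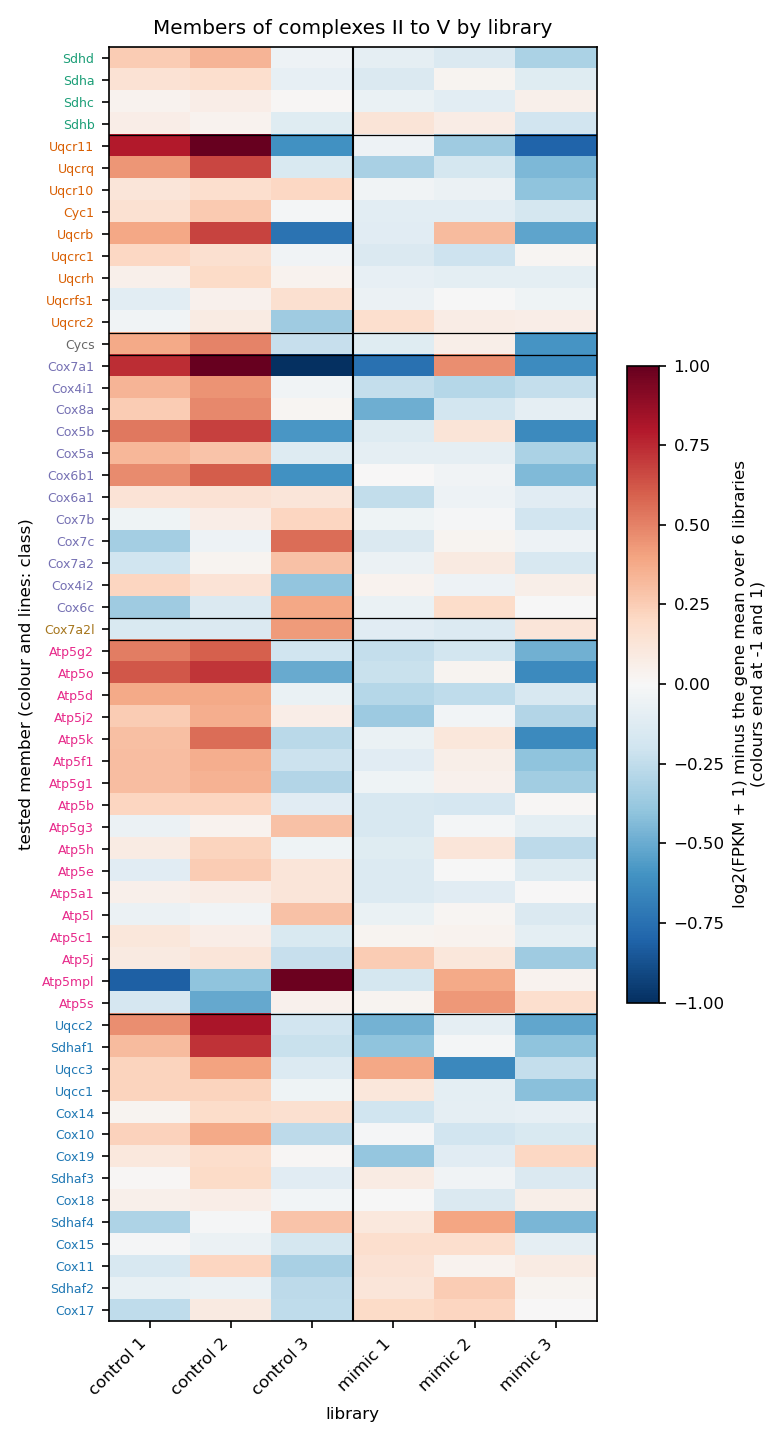
Log2(FPKM + 1) of each of the 58 tested members minus its mean over the 6 libraries, in columns for the 3 control and 3 mimic libraries, with colours ending at −1 and 1. Controls 1 and 2 are mostly above the gene mean, whereas control 3 lies below both in 43 members and far above them in Atp5mpl.

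Most members read lower with the mimic, without any call. On the log2(FPKM + 1) scale, which understates changes of low genes, 46 of the 58 had a negative and 12 a positive fold change (79.3% negative; 43.7% of all 10166 tested genes). The median was −0.21 (range −0.81 to 0.42), against 0.041 over all tested genes. By limma with Benjamini-Hochberg adjustment over all tested genes, 0 members and 0 genes in all (0%) passed an adjusted p of 0.05, and the members' smallest was 0.332. At an unadjusted p under 0.05 stood 10 members on the lower side (5.26% of all tested genes) and 0 on the higher side (7.96%), and limma voom on recovered fragments also had 0 passing.

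The 3 mimic values all lay below the 3 control values in 12 members (7.49% of all tested genes): Sdhd, Cyc1, Uqcr10, Uqcrh, Uqcrq, Cox4i1, Cox6a1, Cox8a, Atp5a1, Atp5d, Atp5j2 and Cox14. They all lay above in 1, the complex II assembly factor Sdhaf2 (12.6%). Without NC 3, 20 members passed on the lower side (12.2% of all tested genes) and 1, Atp5mpl, on the higher side (11.6%). The haem factor Cox10 (−0.42, limma adjusted p = 0.0322) and the stalk subunit Atp5f1 (−0.49, limma adjusted p = 0.0429) were among the 20 and are named after their values were seen; the other 18 are given with their complexes. The median was then −0.24, against −0.0064 over all tested genes, and 46 members were again negative (50.9% of all tested genes).

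The summed level of the 60 members was 3943, 4223 and 3855 FPKM in NC 1 to 3 and 3356, 3518 and 3299 FPKM in mimics 1 to 3. No mimic library reached the lowest control. The FPKM sum over all genes in the table also separated the groups. It was 304158, 308447 and 300019 in NC 1 to 3 and 282492, 284750 and 281109 in mimics 1 to 3. Members made up 1.30%, 1.37% and 1.28% of that sum in controls and 1.19%, 1.24% and 1.17% with the mimic. The group means were 4007 ± 192 and 3391 ± 114 FPKM (SD, n = 3), and 3 against 3 libraries cannot give a two-sided exact permutation p below 0.1. FPKM are scaled to a library's fragments, so fewer transcripts per cell and a larger amount of other RNA cannot be told apart. The share of all FPKM from mtDNA genes was 6.24%, 5.77% and 9.87% in controls and 8.73%, 8.80% and 8.41% with the mimic. FPKM were also rescaled to the same sum over nuclear genes, which evens out the differing totals as well as the mtDNA share. The part of each was not tested. The median of all tested genes then moved to 0.14 and that of members to −0.088. Members thus stood 0.23 under all genes, against 0.25 as deposited.

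**Figure D2:**
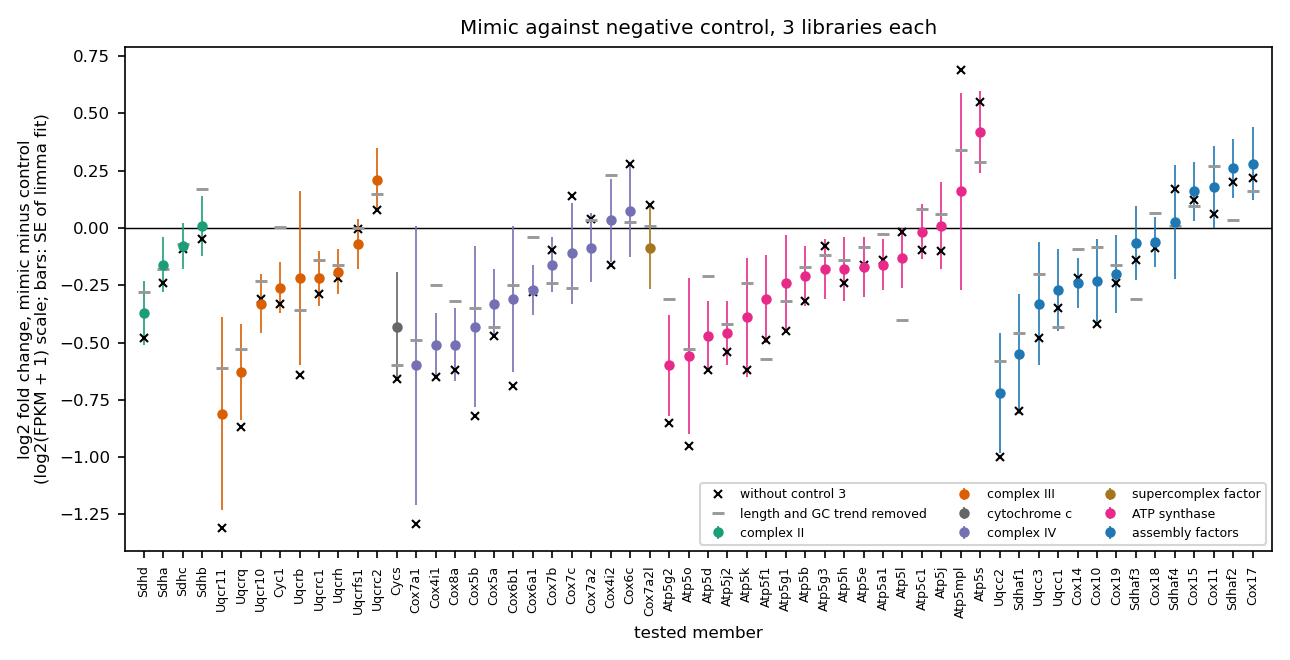
Log2 fold change (mimic minus control, log2(FPKM + 1) scale) of the 58 tested members by class, dots with bars of 1 SE of the limma fit, crosses for the fit without control 3 and dashes for values after removal of a trend on length and GC content. The dots run from −0.81 (Uqcr11) to 0.42 (Atp5s), and without control 3 the cross of Uqcr11 lies at −1.31.

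Of the 4 complex II subunits, the membrane anchor Sdhd had every mimic value below every control, and the other 3 overlapped between groups; the class median was −0.12 and 0 passed with all libraries. Sdhd (ENSMUSG00000000171; GRCm38 chromosome 9, 50596357 to 50603812), which with Sdhc holds the enzyme in the inner membrane, read 228, 242 and 184 FPKM in controls and 179, 172 and 153 FPKM with the mimic. The groups did not overlap, but NC 3 lay close to mimic 1. Its log2 fold change was −0.37 (SE 0.14, limma adjusted p = 0.351), and without NC 3 it passed (−0.48, SE 0.089, limma adjusted p = 0.0137).

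Values of the overlapping subunits lay closer together. Sdha, the flavoprotein that oxidises succinate, read 43.2, 44.0 and 36.7 FPKM in controls and 35.2, 39.8 and 35.8 FPKM with the mimic (−0.16, SE 0.12). Sdhb, which carries the electrons through its iron-sulfur clusters, read 61.7, 60.6 and 54.2 FPKM against 64.5, 62.3 and 51.6 FPKM (0.0097, SE 0.13; −0.047 without NC 3). Sdhc, the other anchor, had means of 33.2 ± 0.637 and 31.4 ± 1.83 FPKM (SD, n = 3; −0.079, SE 0.10). Per exon length, Sdhd was at 193 FPKM on average, above Sdhb at 59.2, Sdha at 39.1 and Sdhc at 32.3 FPKM, and in every library Sdhd was the highest and Sdhb next.

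In complex III, 8 of 9 subunits had a negative fold change (median −0.22) and 0 passed with all libraries. Uqcrq (ENSMUSG00000044894; chromosome 11, 53427922 to 53430831), a small subunit next to cytochrome b, read 45.5, 53.4 and 29.8 FPKM in controls and 26.4, 29.4 and 24.1 FPKM with the mimic. The groups did not overlap, but NC 3 was almost at mimic 2. The log2 fold change was −0.63 (SE 0.21, limma adjusted p = 0.332), or −0.87 without NC 3 (SE 0.11, limma adjusted p = 0.00648).

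Uqcr11 (ENSMUSG00000020163; chromosome 10, 80402997 to 80406830), a small membrane subunit and the only subunit with an 8mer site, had the lowest log2 fold change of all members. It read 26.8, 31.4 and 9.55 FPKM in controls and 14.5, 11.5 and 8.21 FPKM with the mimic. NC 3 lay inside the range of the mimic libraries, so the groups overlapped. The fold change was −0.81 with an SE of 0.42 (limma adjusted p = 0.445) and −1.31 without NC 3 (SE 0.21, limma adjusted p = 0.00981).

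Uqcr10, another small subunit, read 149.9, 155 and 159 FPKM against 134, 132 and 104 FPKM and did not overlap, with NC 3 the highest control (−0.33, SE 0.13, limma adjusted p = 0.356). Uqcrh, the hinge protein that helps cytochrome c1 meet cytochrome c, read 182, 201 and 180.3 FPKM against 166, 164 and 164 FPKM, also without overlap (−0.19, SE 0.10). Cyc1, the haem subunit that hands electrons to cytochrome c, read 49.7, 53.7 and 44.2 FPKM against 41.5, 41.4 and 39.5 FPKM (−0.26, SE 0.11, limma adjusted p = 0.384; −0.33 without NC 3, SE 0.073, limma adjusted p = 0.0227). In these 3 genes every mimic value lay below every control, NC 3 included. The core protein Uqcrc1 had a log2 fold change of −0.22 (SE 0.12). Uqcrc2, the other core protein, was the exception in sign, with control and mimic means of 62.9 ± 9.61 and 72.1 ± 2.99 FPKM (SD, n = 3). The Rieske iron-sulfur protein Uqcrfs1 was nearly level at 138 ± 12.6 and 131 ± 2.25 FPKM, and Uqcrb, which binds ubiquinone, read 32.8 ± 14.8 and 26.6 ± 7.97 FPKM.

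Cycs, the mobile carrier cytochrome c that also triggers apoptosis when released, read 19.5, 21.2 and 12.4 FPKM in controls and 13.5, 15.4 and 9.45 FPKM with the mimic. NC 3 lay between the mimic values, so the groups overlapped. The log2 fold change was −0.43 (SE 0.24, limma adjusted p = 0.469), and −0.66 without NC 3 (SE 0.19, limma adjusted p = 0.0475). This gene matches 16 annotated pseudogenes with at least 90% identity over at least 100 bases and is uncertain.

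Complex IV had a median of −0.29, with 10 of 12 tested subunits negative and 0 passing. Cox4i1 (ENSMUSG00000031818; chromosome 8, 120668222 to 120674207), the subunit through which ATP inhibits the enzyme, read 181, 195 and 139 FPKM in controls and 121, 117 and 121 FPKM with the mimic. The mimic libraries were almost identical and all lay under NC 3. Its log2 fold change was −0.51 (SE 0.14, limma adjusted p = 0.332), and without NC 3 it passed at −0.65 (SE 0.069, limma adjusted p = 0.00524).

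Cox8a, a small subunit of the membrane domain, read 131, 153 and 111 FPKM against 77.9, 96.1 and 103 FPKM (−0.51, SE 0.16, limma adjusted p = 0.332). Cox6a1, the non-muscle form of an accessory subunit, read 208, 209 and 206 FPKM against 159.6, 182 and 175 FPKM (−0.27, SE 0.11, limma adjusted p = 0.357). In both genes the groups did not overlap, and in Cox6a1 NC 3 lay with the other controls. Cox5a, an accessory subunit on the matrix side, read 77.1, 74.6 and 55.6 FPKM against 57.3, 57.2 and 48.8 FPKM and overlapped through NC 3 (−0.33, SE 0.15). Cox5b, a zinc-binding subunit, read 13.6, 15.3 and 5.78 FPKM against 8.24, 10.1 and 5.53 FPKM, again with NC 3 among the mimic values (−0.43, SE 0.35). Without NC 3, Cox8a (−0.62), Cox6a1 (−0.28), Cox5a (−0.47) and Cox5b (−0.82) all passed, with limma adjusted p = 0.0211, 0.0489, 0.0161 and 0.0367.

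Other complex IV subunits followed NC 3 in either direction. Cox7b, on chromosome X, read 102, 110.1 and 122 FPKM against 102, 104 and 91.6 FPKM (−0.16, SE 0.12). Cox7c, at 124, 152 and 232 FPKM in controls, Cox7a2, at 133, 156 and 188 FPKM, and Cox6c, at 24.7, 28.8 and 41.9 FPKM, had their highest value of all 6 libraries in NC 3. Cox6b1 went the other way, with 179, 196 and 84.3 FPKM in controls and 129, 126 and 94.7 FPKM with the mimic. These 4 genes, named after their values were seen, had log2 fold changes between −0.31 and 0.073 with SEs of 0.15 to 0.32. Without NC 3, Cox6b1 stood at −0.69 and passed (SE 0.14, limma adjusted p = 0.0189), Cox6c stood at 0.28, and Cox7c and Cox7a2 changed sign, from −0.11 to 0.14 and from −0.086 to 0.041. Cox7a2l, a factor that ties complexes III and IV into supercomplexes, read 197, 198 and 295 FPKM in controls and 202, 199.5 and 238 FPKM with the mimic. Its fold change was −0.088 (SE 0.18) and turned to 0.10 without NC 3, so no direction is given.

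The ATP synthase had 14 of 17 genes with a negative fold change, a median of −0.18, and 0 passing with all libraries. The enzyme has a catalytic F1 head, a rotating ring of c subunits in the membrane, a peripheral stalk that holds the head still, and small membrane subunits that shape its dimers. In the head, Atp5d (ENSMUSG00000003072; chromosome 10, 80138632 to 80145818), the delta subunit of the central stalk, read 128, 128 and 93.6 FPKM in controls and 80.4, 82.1 and 87.8 FPKM with the mimic. The groups did not overlap (−0.47, SE 0.15, limma adjusted p = 0.332), and without NC 3 the gene passed (−0.62, SE 0.071, limma adjusted p = 0.00546). Atp5b, the catalytic beta subunit, read 247, 246 and 196 FPKM against 189.7, 189 and 214 FPKM, an overlap through NC 3 and mimic 3 (−0.21, SE 0.13; −0.32 without NC 3, SE 0.081, limma adjusted p = 0.0324). The alpha subunit Atp5a1 had the highest mean of all members, 249.6 FPKM, and read 258, 262 and 271 FPKM against 226, 230.3 and 250.1 FPKM, without overlap. The gamma subunit Atp5c1 was level at 166 ± 15.6 and 164 ± 8.30 FPKM (SD, n = 3).

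Atp5g1, Atp5g2 and Atp5g3 encode the same mature c subunit with different import sequences, and Atp5g2 made up the largest share of their summed level. Atp5g2 (ENSMUSG00000062683; chromosome 15, 102662864 to 102672352) read 112, 119 and 68.0 FPKM in controls and 66.5, 68.8 and 55.9 FPKM with the mimic. NC 3 lay within the mimic range, so the groups overlapped. The log2 fold change was −0.60 (SE 0.22, limma adjusted p = 0.344) and −0.85 without NC 3 (SE 0.10, limma adjusted p = 0.00599). Atp5g3 read 52.5, 56.2 and 67.2 FPKM against 48.9, 54.0 and 51.1 FPKM (−0.18, SE 0.13), and Atp5g1 read 4.62, 4.77 and 2.70 FPKM against 3.40, 3.67 and 2.57 FPKM (−0.24, SE 0.21). Atp5g1 matches 31 annotated pseudogenes by the measure used for Cycs and is uncertain.

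Among stalk and membrane subunits, Atp5o and Atp5j2 had the lowest log2 fold changes. Atp5j2 (ENSMUSG00000038690; chromosome 5, 145183698 to 145192062), the f subunit of the membrane part, read 20.2, 21.9 and 17.6 FPKM in controls and 12.8, 16.4 and 13.5 FPKM with the mimic, without overlap. Its log2 fold change of −0.46 (SE 0.14, limma adjusted p = 0.332) was −0.54 without NC 3 (SE 0.12, limma adjusted p = 0.0233) and −0.42 after removal of the trend described below. With both steps it was −0.41 and did not pass (limma adjusted p = 0.0959). After trend removal with all libraries, Atp5d stood at −0.21, Atp5g2 at −0.31, Atp5b at −0.17 and Atp5o at −0.53. Atp5g1 moved the other way, to −0.32. Atp5o, the stalk subunit that confers oligomycin sensitivity, read 24.3, 25.9 and 10.6 FPKM against 13.1, 15.7 and 9.56 FPKM, and NC 3 again lay among the mimic values (−0.56, SE 0.34, limma adjusted p = 0.496; −0.95 without NC 3, SE 0.18, limma adjusted p = 0.0161). Another annotated entry of the symbol Atp5o, not analysed here, shares 12.3% of this gene's exon length on the same strand. Exons of the antisense genes D430001F17Rik and Gm15976 cover 17.5% and 18.1%, so the reads of Atp5o are uncertain. On the higher side stood Atp5s, coupling factor B, at 6.23, 4.70 and 7.37 FPKM against 7.27, 9.93 and 8.10 FPKM, which overlapped (0.42, SE 0.18, limma adjusted p = 0.384). Atp5mpl, a small membrane subunit named after its values were seen, read 42.3, 56.8 and 149.6 FPKM in controls and 66.7, 98.1 and 77.1 FPKM with the mimic. NC 3 was above every other library in this gene, and the fold change was 0.16 (SE 0.43) with it and 0.69 (SE 0.19, limma adjusted p = 0.0411) without it.

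**Figure D3:**
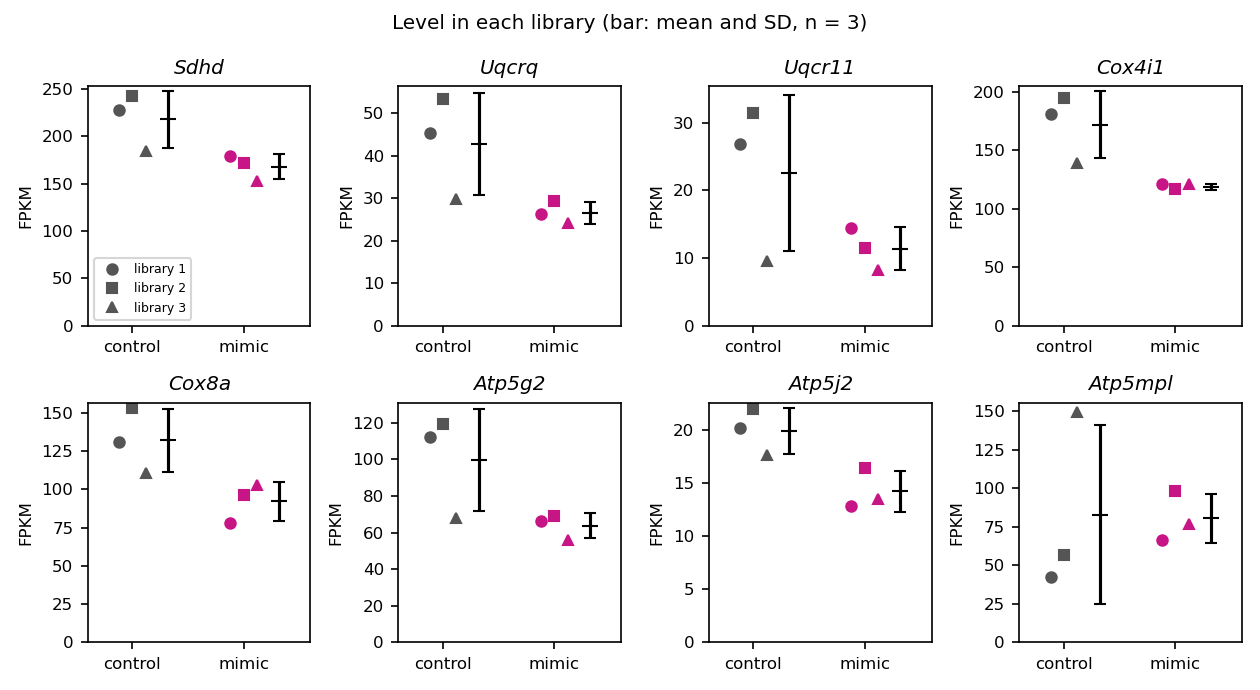
FPKM of 8 members in each library, with the mean and SD of each group (n = 3) beside the points and axes from 0. In Cox4i1 the mimic libraries lie between 117 and 121 FPKM under all controls, in Uqcr11 and Atp5g2 control 3 lies within the mimic range, and in Atp5mpl control 3 is at 149.6 FPKM, above all others.

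Assembly factors, which insert haem, copper and iron-sulfur clusters or join subunits, were negative in 9 of 14 tested and positive in 5 (43.7% negative over all tested genes), with a median of −0.13. Uqcc2 (ENSMUSG00000024208; chromosome 17, 27122663 to 27133916), needed for the synthesis of cytochrome b, read 53.8, 68.9 and 33.8 FPKM in controls and 27.6, 36.3 and 26.7 FPKM with the mimic. NC 3 lay under mimic 2 (−0.72, SE 0.26, limma adjusted p = 0.338), and without NC 3 the gene fell by 1.00 on the log2 scale (SE 0.16, limma adjusted p = 0.0100). Cox14, which acts in early assembly of complex IV around Co1, read 25.5, 28.5 and 28.0 FPKM against 21.7, 23.5 and 23.6 FPKM, without overlap (−0.24, SE 0.11, limma adjusted p = 0.384).

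The complex II assembly factors pointed both ways. Sdhaf1, which helps to place iron-sulfur clusters in Sdhb, read 2.16, 3.18 and 1.17 FPKM against 0.917, 1.50 and 0.914 FPKM (−0.55, SE 0.26, limma adjusted p = 0.407; −0.80 without NC 3, SE 0.19, limma adjusted p = 0.0302). Opposite-strand exons of another gene cover 69.6% of its exon length, so its reads are uncertain. Sdhaf2, which attaches the flavin to Sdha, read 5.53, 5.61 and 4.75 FPKM against 6.48, 7.21 and 6.02 FPKM, the only member with all mimic values above all controls (0.26, SE 0.13, limma adjusted p = 0.414). After removal of a trend on length and GC content its fold change was 0.034, and −0.094 with NC 3 left out as well. Sdhaf2 matches 34 annotated pseudogenes by the measure used for Cycs, the most of any member. Of these, 1 is in the table, and the gene is uncertain. The copper chaperone Cox17 and the haem A synthase Cox15 were among the positive ones, at 1.70 ± 0.386 and 2.25 ± 0.258 FPKM and at 8.34 ± 0.548 and 9.48 ± 1.04 FPKM (SD, n = 3).

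Levels per exon length were compared between tissue isoforms. Cox4i2, the form induced by low oxygen, made up 3.09%, 2.72% and 2.42% of the summed Cox4 level in controls and 3.99%, 3.85% and 4.05% with the mimic. The groups did not overlap, and the smallest two-sided exact permutation p for 3 against 3 is 0.1. Cox4i2 had only 40 to 72 recovered fragments per library. Cox4i2 itself read 5.78, 5.43 and 3.45 FPKM in controls and 5.01, 4.66 and 5.11 FPKM with the mimic. Its log2 fold change was 0.033 (SE 0.18) with all libraries, −0.16 without NC 3 and 0.23 after removal of a trend on length and GC content, and the corresponding values of Cox4i1 were −0.51, −0.65 and −0.25. The exon lengths are 788 bases for Cox4i2 and 1550 for Cox4i1, and the GC contents 56.8% and 58.0%; their part in the share was not tested. Atp5g2 made up 66.2%, 66.2% and 49.3% of the c subunit genes in controls and 55.9%, 54.4% and 51.0% with the mimic, where NC 3 was the lowest of all 6 libraries. The muscle form Cox6a2 was at most 0.631% of the Cox6a level and Cox7a1 at most 2.50% of the Cox7a level. The Cox6a2 shares also did not overlap, at 0.338% to 0.631% in controls and 0.0974% to 0.327% with the mimic. They rest on 2 to 14 recovered fragments per library. Cox7a1 was listed at 0 in NC 3.

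**Figure D4:**
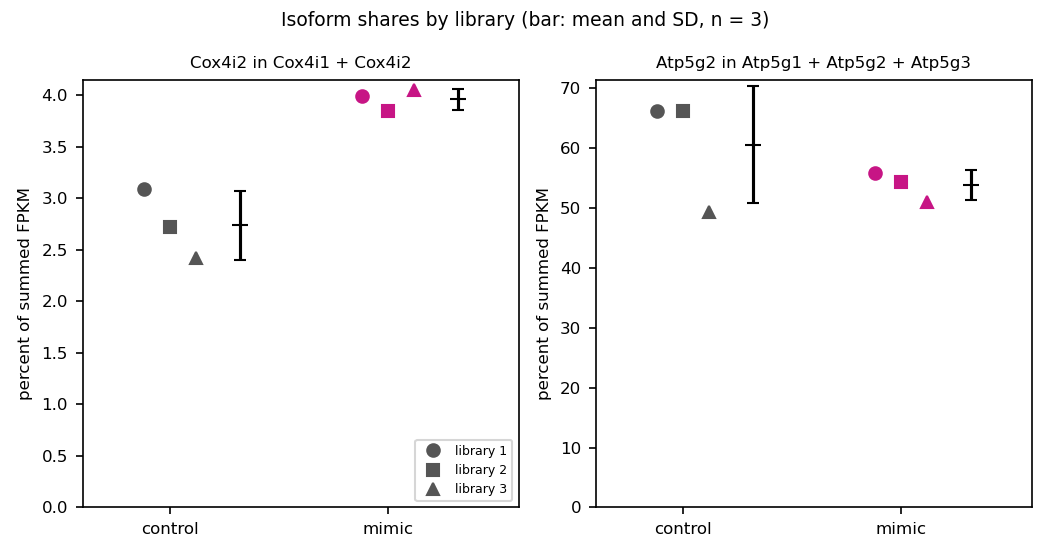
Share of Cox4i2 in the summed FPKM of Cox4i1 and Cox4i2 (left) and of Atp5g2 in the c subunit genes (right), in percent for each library with mean and SD (n = 3), axes from 0. All mimic values of Cox4i2 (3.85% to 4.05%) lie above the controls (2.42% to 3.09%), whereas for Atp5g2 control 3 (49.3%) lies under the mimic libraries.

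The mtDNA-encoded partners of complexes III to V gave different signs with and without NC 3. Of 6 tested, 2 had a negative and 4 a positive fold change with all libraries (median 0.046) and 0 passed. Without NC 3 all 6 were positive (median 0.45), and mt-Atp6, a membrane subunit of the ATP synthase, passed (0.80, limma adjusted p = 0.00802). It read 76.6, 66.7 and 342 FPKM in controls and 143, 115 and 118 FPKM with the mimic. mt-Atp8, counted among the 6, lay near the filter, at 0, 1.46 and 2.00 FPKM against 1.36, 0.590 and 0.956 FPKM. Levels of the 6 genes differed widely. The reason was not tested, and their counting is uncertain. Removal of the trend on length and GC content left 4 negative and 2 positive (median −0.13). mt-Cytb, the cytochrome b of complex III, read 807, 786 and 1365 FPKM in controls and 1394, 1442 and 923 FPKM with the mimic, and mt-Co1, the catalytic subunit of complex IV, 13989, 13350 and 22719 FPKM against 16465, 16425 and 17241 FPKM. In both, NC 3 stood well above NC 1 and NC 2. The summed level of mt-Co1, mt-Co2 and mt-Co3 was 11.9, 10.3 and 19.4 times that of the nuclear complex IV subunits in controls. With the mimic it was 17.0, 15.7 and 17.9 times, and NC 3 was highest. Nearly all of that sum was mt-Co1. mt-Co2 read 85.2, 57.5 and 111 FPKM in controls and 121, 129 and 60.0 FPKM with the mimic. mt-Co3 read 41.6, 32.5 and 256 FPKM against 54.8, 56.5 and 39.1 FPKM. The ratio therefore describes mt-Co1 and not the mtDNA-encoded subunits together.

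Several other nuclear lists were also mostly negative, and 0 of their genes passed with all libraries. Of 45 tested complex I genes (Nduf), 40 were negative, with a median of −0.24, and of 77 mitochondrial ribosomal protein genes 60 were, with a median of −0.18. Cytosolic ribosomal protein genes, which are no part of the mitochondrion, were negative in 73 of 80 (median −0.23). Of all tested genes, 43.7% were negative. Without NC 3 the medians of these 3 lists were −0.36, −0.29 and −0.27. Then 14, 26 and 32 genes passed on the lower side (12.2% of all tested genes) and 1, 0 and 4 on the higher side (11.6%). After removal of the trend on length and GC content, with all libraries, the 3 medians were −0.18, −0.16 and −0.18, against −0.17 for members. The 6 adenine nucleotide, phosphate and porin carriers were all negative (median −0.082; 4 of 6 negative without NC 3), led by the adenine nucleotide carrier Slc25a4 at −0.40 (SE 0.11, limma adjusted p = 0.332; −0.45 without NC 3, limma adjusted p = 0.0163). Assembly factors with other names were split 10 to 8 (median −0.075; −0.17 without NC 3). Regulators of respiratory gene transcription were positive in 9 of 12 (median 0.12). The mtDNA transcription factor Tfb2m had the smallest p among them, at 0.31 (SE 0.12, limma adjusted p = 0.359) and 0.40 without NC 3 (limma adjusted p = 0.0203). Ppargc1b (0.52) and Tefm (0.35) had larger fold changes. Tfb2m stood at 0.21 after removal of the trend on length and GC content. After the same removal the regulators had a median of −0.014, with 5 of 12 positive, so no direction is given for them. Whether these lists differ from the members was not tested.

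Members are short genes, and fold changes in these libraries moved with length and GC content. The median exon length was 1918 bases for members and 4252 for all tested genes, and the median GC content 49.9% and 49.03%. As a description across genes that share the same 6 libraries, Spearman's rho of log2 fold change was −0.55 with GC and 0.38 with exon length over all tested genes, and −0.39 and 0.33 over the 58 members. With the trend on both removed from each library, 40 members were negative and 18 positive (69.0% negative; 49.8% of all tested genes), and the median was −0.17 against 0.0012. By limma 0 members then passed (0% of all tested genes), with 11 lower at an unadjusted p under 0.05 (4.93%) and 0 higher (4.79%). All mimic values lay below the controls in 11 members (8.12%) and above them in 3 (8.42%). Class medians were −0.13 in complex II, −0.16 in III, −0.25 in IV, −0.17 in V and −0.087 in assembly factors.

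Fold change fell with GC content, so by construction that step tends to raise GC-rich genes and lower GC-poor ones. The moves of these members are given as examples and are no separate result. Cyc1, with 61.4% GC, went from −0.26 to 0.0051, Cox6a1, with 62.7%, from −0.27 to −0.039, and Cox8a, with 58.5%, from −0.51 to −0.32. Cycs, with 40.8%, went from −0.43 to −0.60, and Atp5f1, a stalk subunit with 37.0%, from −0.31 to −0.57. Atp5l, the g subunit, with 39.8%, went from −0.13 to −0.40. It matches 16 annotated pseudogenes by the measure used for Cycs and is uncertain. With the trend removed and NC 3 left out, 6 members passed on the lower side (2.83% of all tested genes): Cox5a (−0.63), Atp5f1 (−0.91), Uqcrq (−0.67), Atp5o (−0.87), Cycs (−0.91) and Atp5l (−0.40), with limma adjusted p from 0.0175 to 0.0368. On the higher side 1 did (1.00%), Atp5mpl at 1.00 (limma adjusted p = 0.0454). Of these, Atp5f1, Atp5l and Atp5mpl are outside the rule for named genes and were named after their values were seen. Cox4i1, lowest in p with all libraries, stood at −0.24 there and did not pass (limma adjusted p = 0.107).

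**Figure D5:**
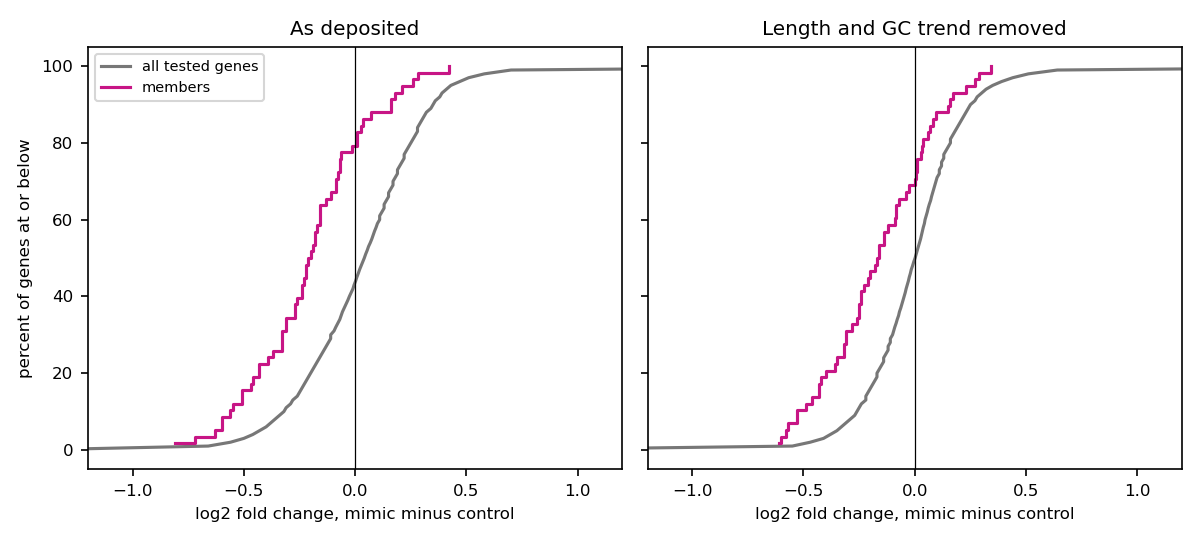
Cumulative percent of genes at or below each log2 fold change (mimic minus control), for the 58 tested members and all 10166 tested genes, as deposited (left) and after removal of the trend on length and GC content (right). Over most of the range the member curve lies left of the curve of all genes in both panels, with medians of −0.21 against 0.041 and −0.17 against 0.0012.

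Nuclear respiratory genes are known to be controlled by NRF1 and by ETS-family factors such as GABP, so promoter windows were searched for their motifs on both strands. RefSeq (GRCm38.p6) gave 51 windows, from 250 bases before to 50 after the start, for 47 members and 13 had none. The full palindromic NRF1 motif was in 7.84% of member windows (2.30% of windows of tested genes, 0.97% of all), and its core GCATGC, which lies within it, in 21.57% (10.32% and 7.93%). The ETS letters CCGGAAG were in 39.22% (19.76% and 8.86%), the YY1 letters AAGATGGC in 9.80% (5.07% and 2.75%), CCAAT in 50.98% (38.25% and 37.41%) and TATAAA in 5.88% (6.57% and 13.62%). A match is a description and no measured site. The windows with the full NRF1 motif belong to Atp5g2, Atp5k, Cox6a1 and Uqcrc1. Stretches of 4 members named above are shown with the NRF1 or ETS letters in capitals, each read on the gene's strand, which is minus in all 4.
Sdhd (ETS on the opposite strand), chr9:50603850-50603949: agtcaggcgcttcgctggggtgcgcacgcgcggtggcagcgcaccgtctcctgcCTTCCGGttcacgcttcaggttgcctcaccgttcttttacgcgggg
Uqcr11 (ETS), chr10:80406834-80406933: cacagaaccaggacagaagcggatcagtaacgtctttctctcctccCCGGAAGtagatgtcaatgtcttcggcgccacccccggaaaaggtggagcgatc
Cox6a1 (NRF1), chr5:115349067-115349166: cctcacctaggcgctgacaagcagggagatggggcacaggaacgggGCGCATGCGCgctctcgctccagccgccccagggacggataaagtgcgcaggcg
Atp5g2 (NRF1), chr15:102671048-102671147: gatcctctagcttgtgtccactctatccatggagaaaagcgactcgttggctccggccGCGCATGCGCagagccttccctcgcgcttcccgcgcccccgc

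The counting of several members is uncertain. Of the 60, 25 match annotated pseudogenes with at least 90% identity over at least 100 bases, 151 matches in all, of which 1 is in the table. A match may lie in any part of a transcript, UTRs included, and repeats were not masked. It therefore need not be a copy of the member. Exons of other genes overlap 21 members, on the opposite strand in 18, and whether the counting used strand is not given in the sources. The largest such overlaps among tested members are in Sdhaf1 and in Cox11, a copper-delivering factor whose exons are covered to 48.3% by Tom1l1. Of the 58 tested members, 48 had at least 100 recovered fragments in every library.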

How the data were processed

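The authors deposited FPKM values per Ensembl gene for 3 mimic and 3 negative control libraries, grouped here by their titles. The submitters' processing notes name the build mm10 and the tools HISAT2, fastp and DESeq2, without versions. Counter, annotation and strandedness are not given in the sources. SMARTer libraries were made from total RNA, per the labels' protocols. Symbols, lengths and positions came from GENCODE M21 (GRCm38), which held 16582 of the 16665 identifiers.

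Genes with a mean of at least 1 FPKM (10166) were log2-transformed after adding 1 and fitted with limma 3.58.1 (R 4.3.3; mean-variance trend on), two-sided, with Benjamini-Hochberg adjustment over all of them and a threshold of 0.05. SE is that of the moderated fit. Fragments were recovered from the steps of low values and exon length; 98.5% to 99.0% of values up to 20 fragments were whole within 0.1, and depth limits mainly members under 100 fragments. The length and GC trend of each library was fitted with mgcv 1.9.3. Pseudogene matches were found with blastn 2.17.0, without masking of repeats. The fit was tested on simulated data.

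Members, lists and alternatives were chosen with earlier results of these data known. Genes given with statistics are Sdha to Sdhd, Cyc1, Cycs, Cox7a2l, Cox4i1, the c subunit genes, the 6 with the smallest p in each of complexes III, IV and V, the 4 with the smallest p among assembly factors, and up to 3 of each other list. Same-numbered libraries of both groups deviated together over genes (correlations 0.29, 0.18 and 0.34), each above 0.1, although NC 2 and mimic 1 also did (0.31). The numbers were therefore tried as a block. Other alternatives covered the pseudocount, filter, scaling, library weights, voom, the trend and leaving out each library.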

Additional observations from a re-analysis of the deposited data

How the results depend on the processing

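The negative median of members and their majority of negative fold changes held in every alternative run. With the replicate number as a block the median was −0.21 and 0 members and 0 genes passed limma, so the pairing changed no call at the adjusted threshold. At an unadjusted p under 0.05 stood 18 members on the lower side with the block, against 10 without it, and 0 on the higher side in both. The share over all tested genes with the block is not given here. Quantile normalisation left 3 members with all mimic values above the controls (10.6% of all tested genes), a complex IV median of −0.14 against −0.20 for III, Cox7a2l at 0.098 and Atp5b at 0.021. Trimmed mean scaling turned Sdhb to −0.024. Scaling to the sum over nuclear genes left 7 members below (3.57% of all tested genes) and 5 above (21.7%), medians of −0.088 for members, 0.0054 for complex II, −0.095 for III and −0.17 for IV, Sdhc at 0.043 and Cox7a2l at 0.037. Array weights gave NC 3 a weight of 0.0860 and NC 2 one of 5.44, and 5276 genes and 37 members passed (33 lower and 4 higher; 24.1% and 27.8% of all tested genes), with Cox7a2l at 0.030 and a complex III median of −0.32; these counts rest on the weights. Removing the length and GC trend, with or without the replicate block, left 3 members above (8.42%), Cyc1 at 0.0051 and Cox7a2l at 0.0087. Without NC 3 as well, 390 genes and 7 members passed, 25 members lay below (22.4% of all tested genes) and 11 above (23.1%), fewer libraries making this easier, and Cyc1 (0.094), Cox7a2l (0.29), Atp5g3 (0.069), Cox6a1 (0.079), Cox14 (0.033) and Sdhaf2 (−0.094) changed sign. Leaving out 1 library gave 0 to 2412 passing genes and 0 to 21 passing members, with counts above 0 only without NC 3. It gave 12 to 33 members below (33 without NC 3, where 29.8% of all tested genes did, and 20 without mimic 2, 9.69%), 1 to 5 above (5 without NC 3, 28.1%; 4 without NC 2, 14.8%, or mimic 3, 25.4%; 2 without mimic 1, 14.6%), and member medians of −0.24 to −0.16. Sdhb ran from −0.051 (without mimic 1) to 0.11 (without mimic 3), with −0.047 without NC 3 and −0.027 without mimic 2, and Cox7a2l from −0.19 (without NC 1) to 0.10 (without NC 3). The complex III median was −0.31 without NC 3 and that of IV −0.17 without NC 2; there and without mimic 3 the median of III (−0.19 and −0.22) was lower than that of IV (−0.17 and −0.19). In the shorter promoter window, 35.29% of member windows held CCAAT. Except where the construction is named, the cause was not tested.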

Other observations

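A pair of further ATP synthase genes meet the rule only under newer symbols and were not counted as members. Atpif1 (newer symbol Atp5if1), which keeps the enzyme from running backwards, read 40.5, 43.5 and 13.9 FPKM in negative controls 1 to 3 and 28.0, 26.7 and 17.5 FPKM in mimics 1 to 3. Usmg5 (newer symbol Atp5md), a small membrane subunit, read 27.3, 29.1 and 54.0 FPKM and 37.0, 41.0 and 35.7 FPKM. Negative control 3 was the lowest of all 6 libraries in Atpif1 and the highest in Usmg5.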
